A study of Oryza sativa Indica Group with 64 samples.

Results

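The change in leaf transcripts between the 10 h sampling and dusk was examined in control rice plants, using the 4 control libraries of dusk against the 4 control libraries of 10 h after dawn. These 8 libraries were chosen by their labelled treatment and time point, out of 64 in the series. The plants were the indica rice IR64, grown in the field in the Philippines in a dry season, and all groups share this variety and setting. The paper gives the tissue of this time course as flag leaf. Control plants had no heater, whereas plants labelled WNT received infrared heating at night, a treatment that the paper calls high night temperature. Both treatments had 8 sampling times, labelled dawn, 3 h, 7 h, 10 h, dusk, 14 h, 17 h and 23 h (hours counted from dawn), and 4 libraries for each combination, giving 16 groups. Besides control dusk and control 10 h, the groups tested were WNT dusk, WNT 10 h, control 14 h and control 7 h, and the other time points are used to describe the course of the day. The labels give no clock hour for dusk, no plant age, and no statement that replicates came from separate plants or plots. The p-values thus measure only spread between libraries, which the gene tests estimated over all 64 libraries.

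Leaf transcripts follow the day through a circadian clock, in which genes active in the morning and genes active in the evening restrain each other, and through direct responses to light and temperature. Around the end of the day, light is withdrawn, photosynthesis stops and the leaf begins to use the starch and sugars stored in daylight. Transcript levels of many plant genes therefore have a set time of day at which they peak, and the hours before and after sunset are a period of change between day-phased and evening-phased genes.

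Genes carry identifiers that start with MH, and 0 of these matched the rice gene table, so that no gene names were paired with them. Genes are therefore described as groups, with 2 genes that rose and 2 that fell given by identifier and without a role. Clock, photosynthesis or starch genes could not be counted, and the labelled leaf tissue could not be checked against its markers.

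Reads counted on genes numbered 9000666, 8055878, 3429002 and 8646088 in control dusk replicates 1 to 4, against 8700244, 15586969, 10972477 and 11914757 in control 10 h replicates 1 to 4. Control dusk replicate 3 was the shallowest, and 25.7% of its reads were not aligned, while the other 7 libraries had 12.2% to 17.0%. Control dusk replicate 1 also stood apart, since its expression profile had a Pearson correlation of 0.955 with the mean of the other dusk libraries and 0.979 with the mean of 10 h. The other 7 libraries correlated best with their own group among the 8 control time points. Results are given with all 8 libraries and, where they lead an account, also without control dusk replicate 1.

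At dusk, 189 genes differed from their level at 10 h in control leaves, at an adjusted p-value under 0.05 in edgeR's quasi-likelihood test across 20525 genes. These were 0.921% of the genes tested. Of the 189 genes, 57 were higher at dusk (0.278% of genes tested) and the others, 69.8% of the calls, were lower (0.643% of genes tested). The genes that rose had a median log2 fold change of 1.53 (range 0.54 to 5.04), and 48 of the 57 changed at least 2-fold. The genes that fell had a median of -1.19 (range -4.01 to -0.40), and 79 of them changed at least 2-fold. Over all genes tested, the median log2 fold change was -0.02 and its median size 0.24. As these are bulk leaves, fewer cells of a type and less RNA per cell cannot be told apart.

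Without control dusk replicate 1, 49 genes were higher and 95 lower, and 128 of these 144 were among the 189. The count of 189 fell to 65 when control dusk replicates 1 and 3 were both left out, and to 49 without control 10 h replicate 1. It was 85 without control dusk replicate 4 and 87 without control 10 h replicate 3, and without control dusk replicate 2 there were 32 higher and 74 lower. DESeq2 called 382 genes and limma voom 1444 in the same libraries. The split by direction moved with the scaling, as the lower genes were 69.8% of calls with TMM, 61.8% with RLE scaling (68 higher, 110 lower) and 54.7% with library size only (73 higher, 88 lower). With DESeq2, which differs in more than the scaling, they were 56.3% (167 higher, 215 lower). Library size only moved the median log2 fold change of all genes to 0.10. The genes that rose and those that fell all kept their direction under it, in the same libraries that chose them. Of these, 49 of the 57 genes that rose and 86 of those that fell were still called.

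**Figure D1:**
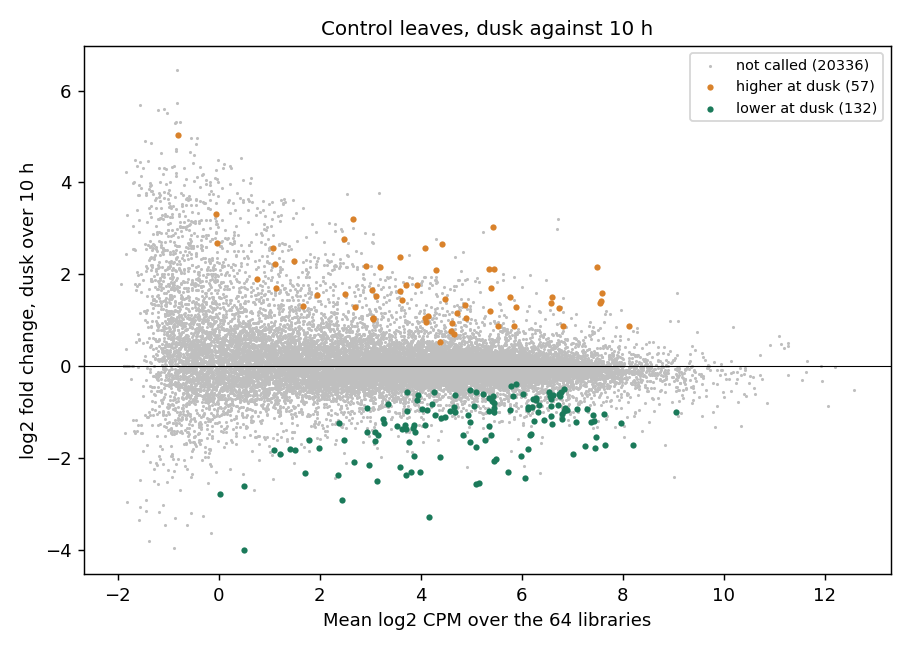
Log2 fold change of dusk over 10 h in control leaves (y axis) against the mean log2 CPM over the 64 libraries (x axis), 1 point per gene tested. Orange points are the 57 genes higher at dusk, green points the genes lower at dusk and grey points the genes not called; large changes among the least counted genes were mostly not called.

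To qualify for naming, a gene had to be called both with and without control dusk replicate 1. Its dusk and 10 h libraries also had to be free of overlap, so for the named genes both traits follow from the choice. The gene with the largest rise among those that qualified was MH04t0599300. Its level was 151, 167, 266 and 151 CPM (counts scaled to a library of fixed size) in control dusk replicates 1 to 4, against 19.7, 30.8, 26.7 and 13.1 CPM in control 10 h replicates 1 to 4. Every dusk library lay above every 10 h library, the lowest dusk value being 151 CPM and the highest 10 h value 30.8 CPM. The log2 fold change was 3.02 (SE 0.51, edgeR adjusted p = 0.000548, n = 4 libraries each), and 3.11 without control dusk replicate 1 (edgeR adjusted p = 0.00111).

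MH10t0431700 had the largest rise in CPM. It was counted at 596, 652, 973 and 480 CPM in control dusk replicates 1 to 4, against 106.6, 288.02, 156 and 53.7 CPM in control 10 h replicates 1 to 4. The groups did not overlap, and control 10 h replicate 2 was the nearest to the dusk libraries. The log2 fold change was 2.16 (SE 0.52, edgeR adjusted p = 0.0238). This call was lost in 8 of 18 alternatives, including those without control 10 h replicate 1 (edgeR adjusted p = 0.136), 3 (0.0781) or 4 (0.102), or without control dusk replicate 3 (0.0853).

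Among the genes that fell, MH03t0506000 had the largest fold change of those that qualified. Its level was 2.596, 3.36, 3.93 and 2.21 CPM in control dusk replicates 1 to 4, against 42.0, 14.9, 27.5 and 31.0 CPM in control 10 h replicates 1 to 4. At dusk the gene was thus read by only 16 to 32 counts in a library, and all 4 libraries were low. The log2 fold change was -3.28 (SE 0.38, edgeR adjusted p = 3.78e-07), the smallest adjusted p-value of the comparison, and -3.22 without control dusk replicate 1.

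MH07t0336500 had the largest fall in CPM. It stood at 363, 316, 266 and 408 CPM in control dusk replicates 1 to 4, against 1470, 947, 1114 and 888 CPM in control 10 h replicates 1 to 4. All dusk libraries were below all 10 h libraries. The log2 fold change was -1.71 (SE 0.37, edgeR adjusted p = 0.00884). It passed the threshold in 16 of 18 alternatives, the exceptions being without control 10 h replicate 1 (log2 fold change -1.49, edgeR adjusted p = 0.0837) and without control dusk replicates 1 and 3 together (-1.61, edgeR adjusted p = 0.166).

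**Figure D2:**
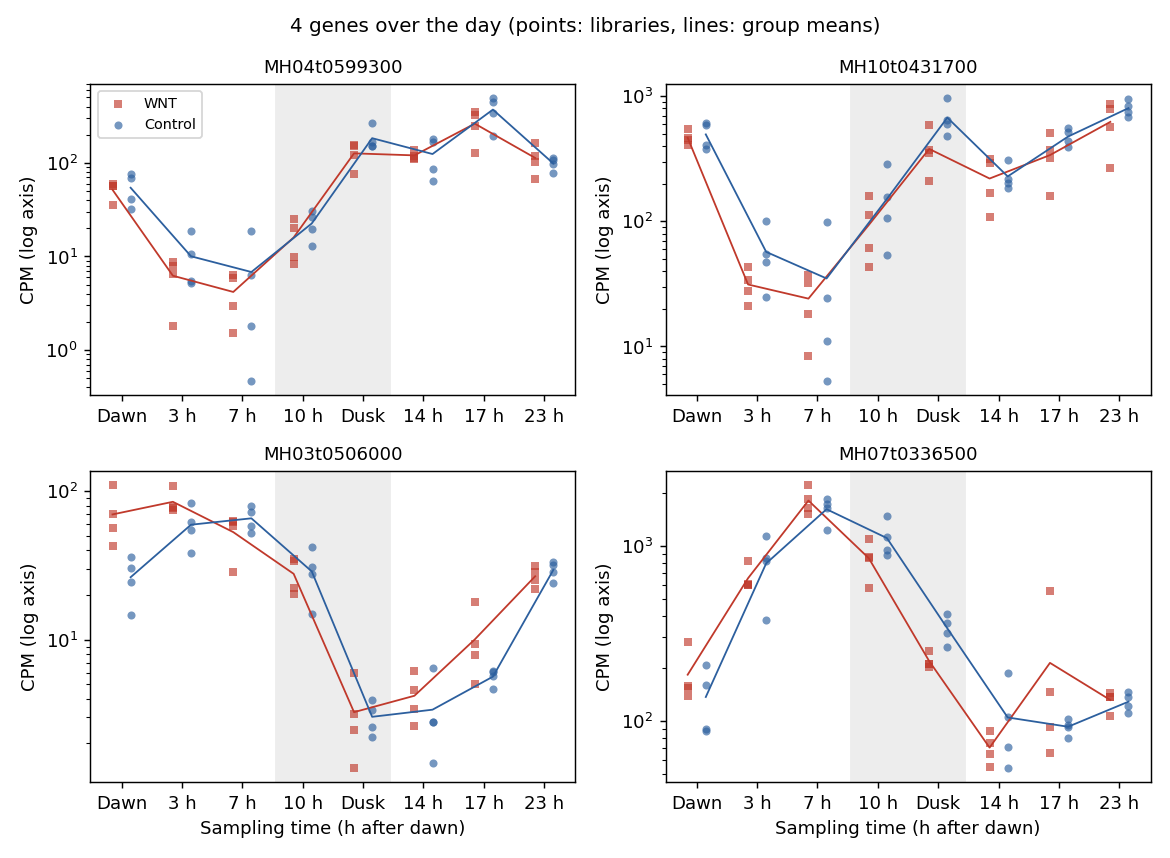
Level of the 4 named genes in CPM (log axis) at the 8 sampling times (x axis, hours after dawn), with red squares for WNT libraries, blue circles for control libraries and lines through the group means; the grey band marks 10 h and dusk. MH04t0599300 and MH10t0431700 had their lowest means at 7 h and stood higher at dusk than at 10 h. MH03t0506000 was high at 7 h and low at dusk and 14 h, whereas MH07t0336500 was high at 7 h, intermediate at dusk and low at 14 h.

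The 4 genes followed different courses over the rest of the day in control leaves. MH04t0599300 averaged 6.83 ± 8.31 CPM at 7 h, 184 ± 55.1 CPM at dusk, 124.3 ± 57.7 CPM at 14 h and 371 ± 134.04 CPM at 17 h (SD, n = 4 each), its highest mean of the day. MH10t0431700 averaged 675 ± 211 CPM at dusk, 229 ± 54.4 CPM at 14 h and 804 ± 119 CPM at 23 h, a course with a high at dusk and another late in the night. MH03t0506000 was at 3.38 ± 2.16 CPM at 14 h and again at 29.5 ± 4.22 CPM at 23 h, which is within the spread of the 10 h level of 28.9 ± 11.1 CPM. MH07t0336500 peaked at 1614 ± 270 CPM at 7 h and was at 129 ± 15.3 CPM at 23 h, so it stayed low through the night.

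The genes that rose were mostly expressed at 10 h as well. Their median mean level was 26.7 CPM at dusk and 12.2 CPM at 10 h, and 9 of the 57 exceeded 100 CPM in the group where they were higher. For the genes that fell, the median mean level was 23.6 CPM at dusk and 46.6 CPM at 10 h, and 37 of these genes exceeded 100 CPM. Genes counted in one group only were rare. Of all genes listed, 9 were counted in all 4 dusk libraries and in no 10 h library, with at most 4 counts in a library, and 22 were counted in all 4 libraries of 10 h and in none of dusk, with at most 8 counts. By this rule, no well-counted gene was switched on or off between these time points. A gene with a few stray reads in its lower group falls outside the rule and was not looked for.

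Separation of the libraries was usual among the called genes, as the same values chose them. In 52 of the 57 genes that rose and 121 of those that fell, the 4 dusk libraries did not overlap the 4 libraries of 10 h. Over all genes tested, 9.35% had non-overlapping libraries, 3.57% with dusk higher and 5.79% with dusk lower. Most of these 1920 genes were not called, and 2595 genes (12.6%) had an unadjusted p under 0.05.

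The genes that rose took up 0.402%, 0.462%, 0.525% and 0.438% of the counts in control dusk replicates 1 to 4, against 0.121%, 0.192%, 0.136% and 0.118% in control 10 h replicates 1 to 4. The genes that fell took up 0.574%, 0.601%, 0.566% and 0.559% at dusk, against 1.30%, 1.04%, 1.30% and 1.06% at 10 h. These libraries chose the genes, so a difference in their shares follows from the choice. Control dusk replicate 1 had the lowest share of the genes that rose among the dusk libraries, yet was above all 10 h libraries. On the genes called without that library, it held 0.294% for those that rose, against 0.0823% to 0.138% at 10 h. For those that fell it held 0.478%, against 0.856% to 1.05% at 10 h. The levels in WNT leaves did not choose these genes. There, the genes that rose held 0.323% to 0.461% of counts at dusk, against 0.119% to 0.162% at 10 h. The genes that fell held 0.517% to 0.610% in WNT dusk libraries, against 0.911% to 1.10% in WNT 10 h libraries.

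None of 3 features of the libraries as a whole passed its test, in a design in which 0.0286 is the smallest p-value. The 10 most counted genes held 4.43 ± 0.79% of counts at dusk and 5.37 ± 0.67% at 10 h (SD, n = 4 each; exact two-sided permutation test, p = 0.20). With each library thinned to the depth of the shallowest, 21615 ± 483 genes were detected at dusk and 21176 ± 241 at 10 h (exact two-sided permutation test, p = 0.171). Without thinning, the order was the other way, with 22839 ± 692 genes at dusk and 23308 ± 594 at 10 h. The share of reads not aligned was 17.2 ± 6.01% at dusk and 13.7 ± 0.76% at 10 h (exact two-sided permutation test, p = 0.343), and its part in the gene changes was not tested.

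Over the full day in control leaves, the median level of the genes that rose had its trough in daylight. Their median log2 level relative to 10 h was 1.40 at dawn, then 0.21 at 3 h and -0.38 at 7 h; from dusk on it was 1.51, with 1.16 at 14 h, 1.48 at 17 h and 1.36 by 23 h. The values of dusk and 10 h chose the genes, and single genes differed widely at dawn, where the quartiles were 0.22 and 2.38. The highest of the 8 time points was dusk for 22 of the 57 genes (38.6%, against 9.28% of all genes tested). It was 23 h for 14 (24.6%, against 15.6%) and dawn for 11 (19.3%, against 13.9%). For 14 h and 17 h the counts were 6 (10.5%, against 9.37%) and 4 (7.02%, against 9.05%), near the shares of all genes. Among the 6 time points that did not choose these genes, the lowest level was at 7 h for 48 of the 57 genes (84.2%), against 20.7% of all genes tested.

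The median level of the genes that fell had its maximum in daylight. Their median log2 level relative to 10 h was -0.14 at dawn, then 0.46 at 3 h and 0.70 at 7 h; from dusk on it was -1.15, with -1.45 at 14 h, -1.18 at 17 h and -0.13 by 23 h. Single genes differed widely at 23 h, where the quartiles were -1.17 and 1.09 and 61 genes were above their 10 h level. Of the genes that fell, 103 (78.03%) were higher at 23 h than at 14 h, against 46.3% of all genes tested. In WNT leaves, 103 of the listed genes were higher at 23 h than at 14 h, against 51.7% of all genes tested. Among the 6 time points that did not choose them, 77 genes were highest at 7 h (58.3%, against 24.7% of all genes tested) and 72 were lowest at 14 h (54.5%, against 19.9%). These counts describe group means and were not tested gene by gene.

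**Figure D3:**
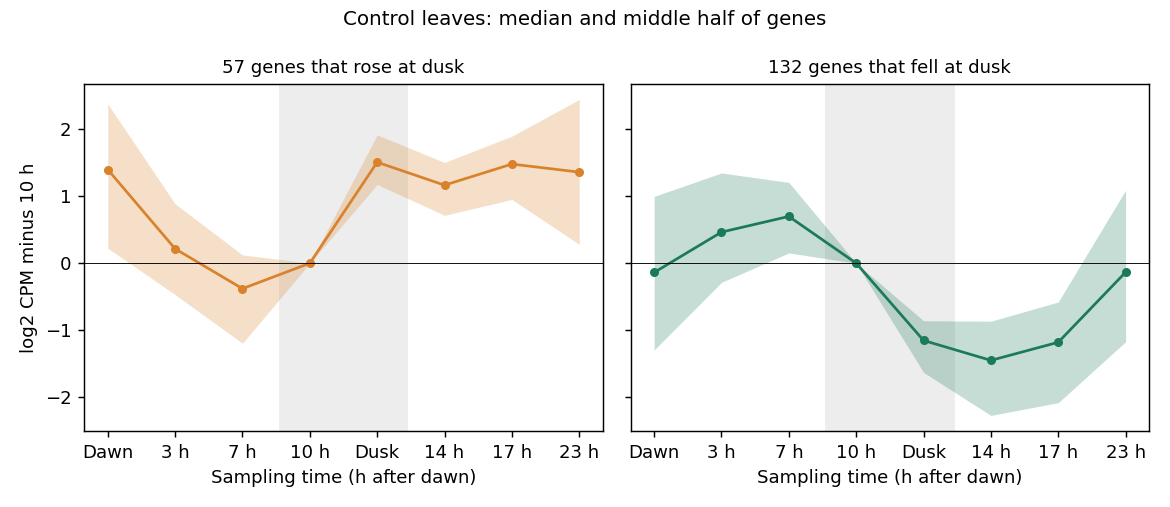
Median log2 CPM relative to 10 h (line) and the range from the lower to the upper quartile of the genes (shaded) at the 8 sampling times in control leaves, for the 57 genes that rose at dusk (left) and the genes that fell (right); the grey band marks 10 h and dusk. The genes that rose were at -0.38 at 7 h and 1.51 at dusk, 1.16 at 14 h and 1.48 at 17 h, and the genes that fell were at 0.70 at 7 h and -1.45 at 14 h.

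The range of these genes over the day is given as a description. Between the lowest and highest of the 8 control time points, the median range was 2.96 on the log2 scale for the genes that rose, 2.83 for those that fell and 1.33 for all genes tested. The step from 10 h to dusk covered a median of 50.8% of the range in the genes that rose and 44.0% in those that fell. Both values include the time points that chose the genes.

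Control 14 h was compared with control 7 h, the time points on either side, whose levels did not choose the genes. The spread of each gene was estimated over all 64 libraries, which include these, and it bears on the calls of both comparisons. The called shares are thus not independent of the choice. Of the 57 genes that rose at dusk, 53 were higher at 14 h than at 7 h and 45 (78.9%) were called higher, against 12.2% of all genes tested, with a median log2 fold change of 1.51. Of the genes that fell, all but 1 were lower at 14 h and 94.7% were called lower, against 15.5% of all genes tested, with a median of -2.19. A single gene that rose at dusk was called lower at 14 h. With the genes called without control dusk replicate 1, 40 of the 49 that rose were higher at 14 h, 32 were called higher and 2 called lower, with a median of 1.22. Of the 95 that fell in that list, 94 were lower and 88 were called lower. The wider interval had 5667 genes called in all, against 189 between dusk and 10 h. Control 14 h replicate 2 had only 37.8% of its reads on genes and 21.7% not uniquely aligned, and 5389 genes were called without it. With library size only, 56 of the 57 genes that rose were higher at 14 h, 50 of them called, and 127 of those that fell were lower, while the median log2 fold change of all genes moved to 0.32.

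All 4 named genes changed in the same direction across the wider interval. The log2 fold change of 14 h over 7 h was 4.25 (SE 0.56) for MH04t0599300 and 2.72 (SE 0.54) for MH10t0431700. It was -4.33 (SE 0.39) for MH03t0506000 and -3.94 (SE 0.41) for MH07t0336500, and the edgeR adjusted p-values of the 4 genes were 8.86e-05 or smaller.

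WNT leaves gave the same interval in 8 further libraries, tested in the same model of 64. The spread shared in that model bears on these calls too, so the called shares are not independent of the choice. Between WNT dusk and WNT 10 h, 153 genes were higher (0.745% of genes tested) and 308 lower (1.50%), by the same edgeR test. Of the 57 genes that rose in control leaves, 57 were higher at dusk in WNT leaves and 32 (56.1%) were called, with a median log2 fold change of 1.33. Of those that fell, all but 1 were lower and 73 (55.3%) were called, with a median of -1.02. Among all genes tested, 46.8% were higher and 53.2% lower at dusk in WNT leaves. The genes called in both treatments were 55.6% of the control list and 22.8% of the WNT list. With the lists made without control dusk replicate 1, all 49 and all 95 genes kept their direction in WNT leaves and 29 and 65 were called.

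The count in WNT leaves depended on single libraries, as it was between 103 and 285 when any library other than WNT 10 h replicate 2 was left out, and 492 without that one. The lowest count, 103, was without WNT 10 h replicate 3.

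In WNT leaves MH04t0599300 was at 153, 121, 75.5 and 156 CPM in dusk replicates 1 to 4, against 25.4, 8.41, 9.95 and 20.1 CPM in 10 h replicates 1 to 4. Its log2 fold change was 2.99 (SE 0.51, edgeR adjusted p = 0.00057), next to 3.02 in control leaves. MH03t0506000 was at 2.46, 3.18, 1.37 and 6.00 CPM in WNT dusk replicates 1 to 4, against 20.3, 22.2, 33.7 and 35.1 CPM in WNT 10 h replicates 1 to 4. These WNT dusk values of MH03t0506000 rested on 21, 14, 3 and 71 counts, and WNT dusk replicate 3 had only 1714647 counts on genes. MH04t0599300 and MH03t0506000 thus had non-overlapping libraries in WNT leaves as well. The log2 fold change of MH03t0506000 was -2.95 (SE 0.38, edgeR adjusted p = 3.4e-06). MH10t0431700 had a log2 fold change of 2.02 (SE 0.52, edgeR adjusted p = 0.0281) and MH07t0336500 of -1.95 (SE 0.37, edgeR adjusted p = 0.00239) in WNT leaves.

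The difference between the WNT change and the control change was tested for each gene in the same model. By edgeR, 0 of 20525 genes passed an adjusted p-value under 0.05, and 294 (1.43%) had an unadjusted p under 0.05. With no differences at all, a share of 0.05 is expected on average, and the share found was below it. Whether the test was conservative was not tested, and 0 genes does not show equal changes. The common coefficient of variation between libraries was 0.332 in this model. In fits of the dusk and 10 h libraries alone it was 0.287 for control and 0.228 for WNT. The part of this in the result was not tested. DESeq2 and limma voom also gave 0 genes. The change was smaller in WNT leaves in 45 of the 57 genes that rose and 98 of those that fell, but these genes were chosen on the control libraries, where their changes were large. For MH04t0599300 the difference was -0.03 (SE 0.68) and for MH03t0506000 it was 0.33 (SE 0.52), so that a difference of the size of these errors was not detectable with 4 libraries each.

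**Figure D4:**
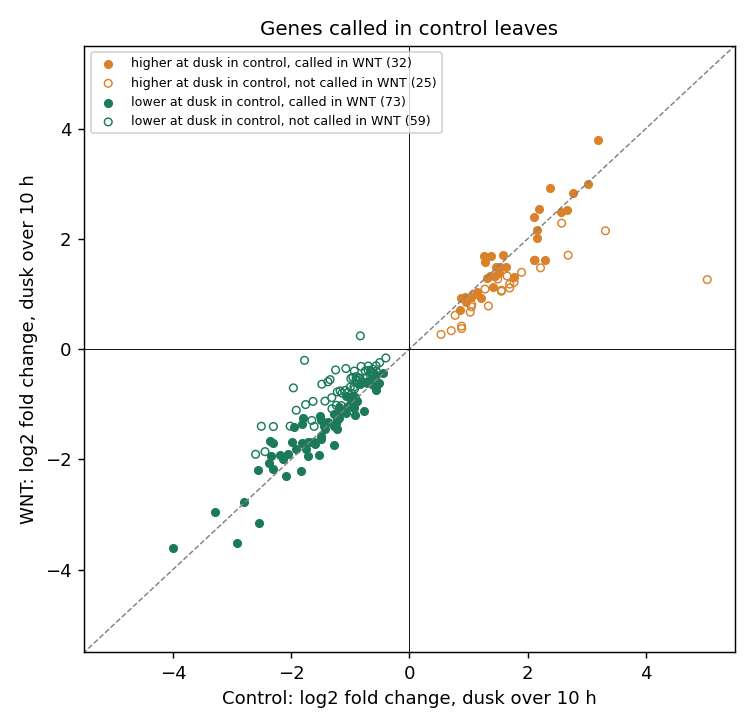
Log2 fold change of dusk over 10 h in WNT leaves (y axis) against that in control leaves (x axis) for the 189 genes called in control leaves, with orange for genes higher and green for genes lower at dusk, filled where the gene was also called in WNT leaves (32 and 73 genes). The dashed line marks equal change; a single gene, which fell in control leaves, had the opposite sign in WNT leaves.

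The control libraries were also placed on a scale made from the levels in WNT leaves. On the 461 genes called in WNT leaves, the mean of WNT 10 h was set to 0 and the mean of WNT dusk to 1. Control dusk replicates 1 to 4 were at 0.63, 0.85, 1.08 and 0.88, against 0.12, 0.32, 0.17 and 0.08 for control 10 h replicates 1 to 4. Control dusk replicate 1 was the nearest of the dusk libraries to 10 h but lay above every 10 h library, so that on these genes its label and its position went together. The means were 0.86 ± 0.18 at dusk and 0.17 ± 0.10 at 10 h (SD, n = 4 each; exact two-sided permutation test, p = 0.0286, the smallest that 4 against 4 libraries allow, and 0.114 adjusted over the 4 single values tested). Without control dusk replicate 1, the dusk mean was 0.94 ± 0.13.

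On the same scale, the control mean was 1.40 at dawn and 0.63 at 3 h, then 0.18 at 7 h with 0.17 at 10 h. It was 0.86 for dusk and 0.92 for 14 h, followed by 1.08 at 17 h and 1.38 by 23 h. The 7 h and 10 h groups did not differ beyond their spread (SD 0.28 and 0.10), nor did dusk and 14 h (SD 0.18 and 0.27). Control 7 h replicate 3 stood at 0.58, above the other 7 h libraries at -0.05 to 0.20.

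**Figure D5:**
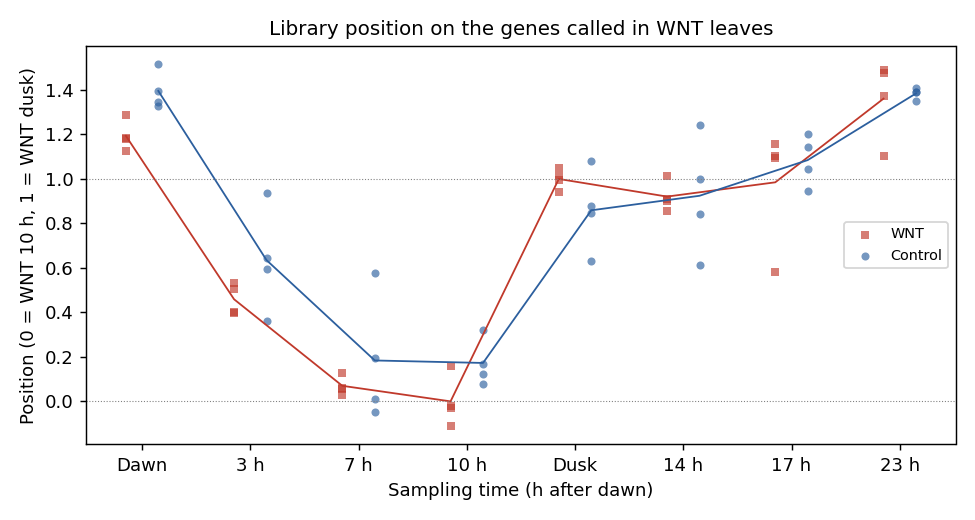
Position of each library (y axis) on the genes called in WNT leaves, from 0 for the mean of WNT 10 h to 1 for the mean of WNT dusk, at the 8 sampling times (x axis), with red squares for WNT and blue circles for control libraries and lines through group means. The 4 control dusk libraries sit between 0.63 and 1.08, above the 4 control 10 h libraries at 0.08 to 0.32.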

How the data were processed

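RNA of IR64 leaves was enriched for poly(A) RNA and made into libraries with a directional kit. The authors deposited raw counts of reads per gene, whole numbers without normalization, for 57174 genes in each of 64 libraries. The submitters' processing notes name HISAT2 (version 2) and HTSeq (version 0.6.0), but the genome build, annotation and use of strand are not given in the sources used here, so that overlapping, antisense and near-identical genes are uncertain. The 5 closing lines for reads not counted on a gene were left out of the library sizes and tests.

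Groups follow the labelled treatment, time point and replicate. The filter was filterByExpr with the 16 groups (count minimum 10, total at least 15), and the counts were scaled by TMM and fitted in a single model of 64 libraries with edgeR 4.0.16 (glmQLFit with robust estimation, glmQLFTest) in R 4.3.3. The Benjamini-Hochberg adjustment ran over 20525 genes, and genes under 0.05 were called. The genes of the control comparison were 57 that rose and 132 that fell. The common biological coefficient of variation was 0.332. Standard errors were computed from the fold change and its F statistic, CPM with edgeR's cpm function and the TMM factors, and log2 CPM with a prior count of 2. The position of a library was its place between the means of WNT 10 h and WNT dusk on log2 CPM of the genes called in WNT leaves. A share of 3 counts, the smallest a library was taken to show, was 1.92e-05% to 8.75e-05% of the counts in the 8 libraries, and covers counting error only, since PCR reads without molecular identifiers are not independent molecules.

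The comparisons, members and lists were chosen with earlier results of these data known. The named genes were, in each direction, that with the largest fold change and that with the largest CPM difference among the genes that qualified. These were called both with and without control dusk replicate 1, with non-overlapping libraries and at least 10 CPM in the higher group. Lists of pathway genes could not be counted, as identifiers were not paired with names. The alternatives were RLE scaling, library size only, other filters, DESeq2 1.42.0, limma 3.58.1 (voom with sample quality weights), smaller sets of libraries, a replicate block, stricter thresholds and leaving out each library in turn, where fits kept the same 20525 genes. Leaving out control dusk replicates 1 and 3 together was added after seeing the data. The test was tested on simulated data, and matplotlib 3.10.9 (Python 3.11.15) made the plots.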

Additional observations from a re-analysis of the deposited data

Results flagged for a closer look

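Control dusk replicate 3 had 3429002 counts on genes, far from the other 3 control dusk libraries at 8055878 to 9000666. It was the single distant library in 22 such checks of groups of 4, where chance distances of this size come in about 5% of groups. Without it, 40 genes were called higher and 91 lower at dusk.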

How the results depend on the processing

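For the 189 genes called in control leaves, the count was 101 without an expression filter, 73 at an adjusted p-value under 0.01, 382 with DESeq2, 1444 with limma voom and sample quality weights, 393 from the 8 libraries of the comparison alone, and 65 without control dusk replicates 1 and 3 together. Leaving out each library in turn gave 49 to 193. For the 461 genes in WNT leaves (2.25% of the 20525 tested), the count relative to the same 20525 was 1.46% with library size only, 0.794% without an expression filter, 1.19% at 2-fold or more, 0.473% at an adjusted p-value under 0.01, 4.18% with DESeq2, 20.1% with limma voom, 11.3% from 8 libraries alone, and 0.502% to 2.40% leaving out each library in turn. For the 5667 genes of 14 h against 7 h, it was 3239 at 2-fold or more, 3715 at an adjusted p-value under 0.01, 3325 from 8 libraries alone, and 4694 to 5587 leaving out each library in turn. The difference between the treatments had 0 genes in every alternative run. The causes of these changes were not tested, apart from the stricter thresholds, which can only lower a count.

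The dusk minus 10 h difference in genes detected was -469.75, and 439 after thinning to equal depth. With the genes called without control dusk replicate 1, the difference in the share of counts was 0.254 percentage points for genes that rose (0.315 with all libraries) and -0.497 for genes that fell (-0.602), from a smaller set of genes. The fold changes of the 4 named genes kept their direction in every alternative that gave a value; MH04t0599300 and MH03t0506000 had none with at least 10 counts in every library, as they did not pass that filter.

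A replicate block gave 208 genes in control leaves, 591 in WNT leaves and 5821 for 14 h against 7 h. Same-numbered control dusk and 10 h libraries had correlations of their deviations of 0.379, 0.278, 0.225 and -0.194. The differently numbered pairs ran from -0.452 to 0.386, and the second highest of them was 0.169. The main model did not pair the libraries by number, and whether equal numbers mark a shared source was not tested.

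The lowest depth of the 8 libraries, 3429002 counts, limits what can be said of weakly expressed genes. Their median standard error was 0.59 on the log2 scale in the lowest of 3 equal classes of expression, against 0.19 in the highest, and 0.395% and 1.36% of their genes were called.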
